A study of Arabidopsis thaliana with 30 samples.

Results

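Whole seeds of wild-type Arabidopsis thaliana of the ecotype Col-0 were compared at 12 and at 8 days after flowering (DAF). The comparison rests on 6 arrays, 3 at each age, chosen by their titles from the 30 arrays of the series, and it takes in all 22746 probe sets that are not array controls, of 22810 in all. Each array carried labelled RNA of seeds dissected from siliques of plants grown in long days, and the labels describe the 3 arrays of an age as biological replicates. The titles of the 12 DAF arrays carry a 2-part number unlike those of other groups, and what its constant part stands for was not given. A further 2 genotypes served only for comparison, again with 3 arrays at 8 DAF and 3 at 12 DAF: the wild type WS, a second ecotype, and fus3-3, a homozygous mutant for which Col-0 is the control, of FUS3, a transcription factor of seed maturation. The remaining 12 arrays of the series, of the homozygous mutants lec1-1 and lec2-1 at the same ages, entered only an alternative fit. Seed coat, endosperm and embryo were not separated, so fewer cells of a type and less RNA per cell cannot be told apart in any result below.

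An Arabidopsis seed first builds its embryo by cell division and patterning, and then enters maturation, when the embryo fills with storage protein and oil and acquires tolerance to drying. The young embryo is green and photosynthetic, and it loses chlorophyll late in maturation. The seed coat around it lays down tannins and mucilage over the same days, and then its cells die.

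The authors' values are log2 signals after GCRMA, a method that subtracts background and brings arrays to a common distribution. A probe set is described as risen or fallen where limma, fitted on the 12 arrays of Col-0 and fus3-3, gave a Benjamini-Hochberg adjusted p under 0.05 over all 22746 probe sets and the change was at least 2-fold, or 1 on the log2 scale. Changes are log2 differences, 12 minus 8 DAF, with the standard error (SE) of the fit, and n is 3 arrays at each age throughout. A gene was read from a probe set paired with that gene alone, the brightest where there were several, which gave 13356 genes. The array lows were between 1.65 and 1.74 at each age, and a mean under 3 is close to them. Where the dimmer age had such a mean, the size of the change is a minimum rather than a measured ratio.

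Replicate arrays correlated between 0.985 and 0.995 over all probe sets. Array medians lay between 4.48 and 4.52 at 8 DAF and between 4.34 and 4.40 at 12 DAF. The arrays at 12 DAF were more spread among themselves, with a median SD per probe set of 0.142 against 0.104 at 8 DAF. The signal of the actin control's 3′ probe set exceeded that of its 5′ probe set by 5.54 ± 0.04 at 8 DAF and by 4.87 ± 0.04 at 12 DAF (SD, n = 3), and that of the GAPDH control by 1.58 ± 0.03 and 2.37 ± 0.34. For the ubiquitin control it was 1.07 ± 0.16 and 0.95 ± 0.16. The actin and GAPDH measures of transcript completeness moved in opposite directions, and that of ubiquitin changed little. The part of these measures in the results was not tested. Of 7 genes often used as references, GAPC2, a cytosolic glyceraldehyde-3-phosphate dehydrogenase, fell by 1.13 and the other 6 were not called, with changes between -0.12 and 0.73.

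Between the ages, 4661 probe sets differed, 20.5% of those tested. Of these, 2094 rose (9.21%) and 2567 fell (11.3%), while the median change over all probe sets was 0.04. The largest class in each direction changed between 2- and 4-fold, with 1312 risen and 1445 fallen probe sets. At the far end, 105 rose and 86 fell by 5 or more on the log2 scale. In 13418 probe sets, 59.0%, the 3 arrays of 12 DAF did not overlap those of 8 DAF. Counted per gene, 1131 genes rose (8.47%) and 1302 fell (9.75%). A mean under 3 at the dimmer age was found for 321 of the risen and 514 of the fallen probe sets, among them many of the largest changes.

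The changes were read through 32 gene lists that hold 1566 genes. Of these lists 25 had a measured gene, and 281 genes were measured in all. The measured part was 34 of 50 for LEA proteins, 31 of 89 for photosynthesis, 3 of 14 for chlorophyll synthesis and 8 of 106 for the cell cycle. Results for a list thus cover only its measured genes. The lists are taken in the order maturation, reserves, photosynthesis, growth, seed coat and regulators. Members of a list share a name or a known role. Genes that are named although they were not called, and the organelle, family and neighbour groups, were chosen after their values had been seen, and the counts of each list stand beside the shares over all genes just given.

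**Figure D1:**
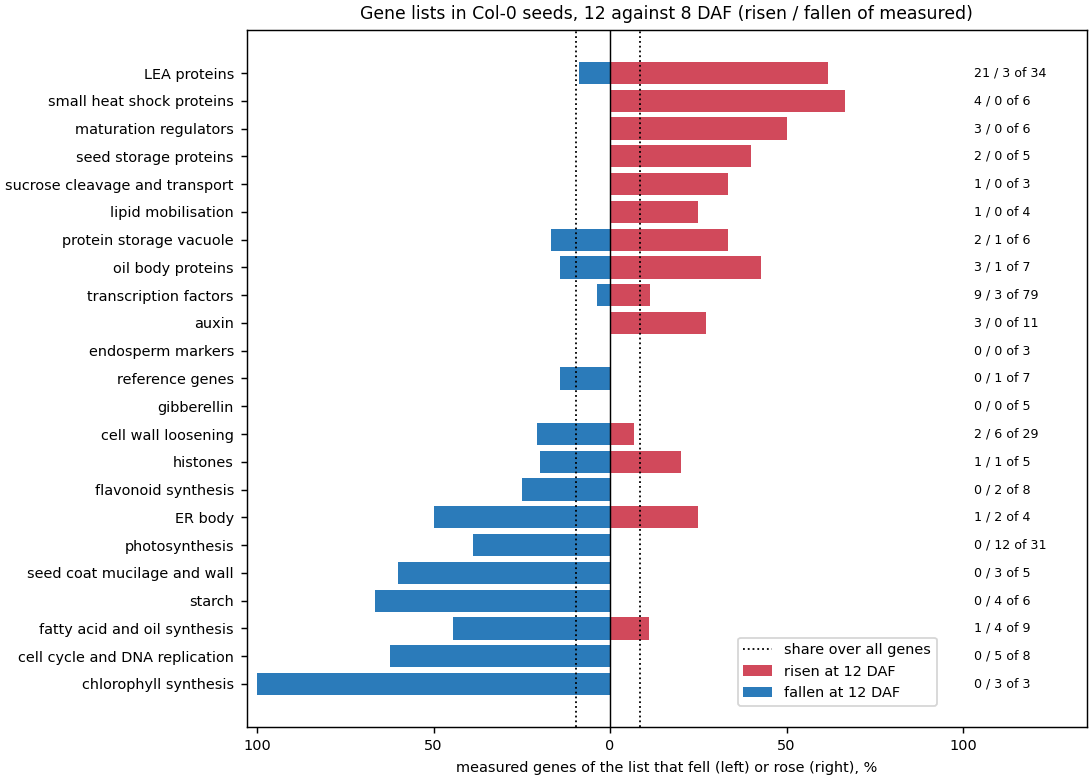
Share of the measured genes of each list with at least 3 genes that rose (right, red) or fell (left, blue) in Col-0 seeds from 8 to 12 DAF, in percent, ordered by the list's median change. Dotted lines mark the shares over all 13356 genes, 8.47% risen and 9.75% fallen, and the figures at the right are the counts. LEA proteins, small heat shock proteins and maturation regulators had the largest risen shares, and chlorophyll synthesis, cell cycle, starch and photosynthesis had falls and no rise.

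Late embryogenesis abundant (LEA) proteins, small hydrophilic proteins that accumulate as seeds acquire tolerance to drying, made up the list with the most changes. Of its 34 measured genes, 21 rose and 3 fell, and the median change was 2.82 against 0.05 over all genes. AT3G15670 read 7.23, 7.49 and 6.13 on the 8 DAF arrays and 14.47, 14.67 and 14.42 on the 12 DAF arrays. The ages were far apart, and the 12 DAF arrays lay close together. It rose by 7.57 (SE 0.35, adjusted p = 3.78e-07), about 190-fold.

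AT3G53040 read 3.09, 3.20 and 3.19 at 8 DAF and 10.39, 11.45 and 10.12 at 12 DAF. It went from near the array lows to a high signal, a rise of 7.50 (SE 0.44, adjusted p = 1.57e-06). M10 read 2.76, 2.70 and 2.60 at 8 DAF and 9.90, 11.38 and 8.99 at 12 DAF. Its rise was 7.40 (SE 0.59, adjusted p = 1.01e-05), and the 3 arrays of 12 DAF spanned more than 2 log2 units, with the second replicate highest. AT1G72100 rose by 5.83 (SE 0.31) and AT4G39130 by 5.25 (SE 0.44).

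Among members with familiar names, the dehydrin gene LTI30 read 6.16, 7.70 and 6.15 at 8 DAF and 10.99, 11.94 and 11.21 at 12 DAF. The ages were well apart although the second replicate was high at both, and the rise was 4.71 (SE 0.53, adjusted p = 0.000101). LEA18 rose by 4.51 (SE 0.24), LEA4-5 by 4.46 (SE 0.27) and AtLEA4-1 by 3.03 (SE 0.18). M17 rose by 4.33 with the widest spread of the list at 12 DAF, where its arrays read 7.34, 8.33 and 4.87. The gene whose symbol is LEA was already bright at 8 DAF, with a mean of 10.66, and rose by 2.62 (SE 0.24) to a mean of 13.27.

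The list did not move as a block. AT4G38410 read 7.59, 7.96 and 9.0 at 8 DAF and 3.15, 3.61 and 3.58 at 12 DAF, a fall of 4.74 on the log2 scale (SE 0.37, adjusted p = 9.23e-06). COR47, a dehydrin known for its induction by cold, fell by 1.56 (SE 0.20), and AT2G44060, for which the annotation gives the synonym LEA26, fell by 1.54 (SE 0.12). The cold-induced COR15A and COR15B stayed between 2.38 and 3.32 on all 6 arrays. In all, 5 members had a mean under 3 at both ages and contribute nothing but a signal near the array lows.

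**Figure D2:**
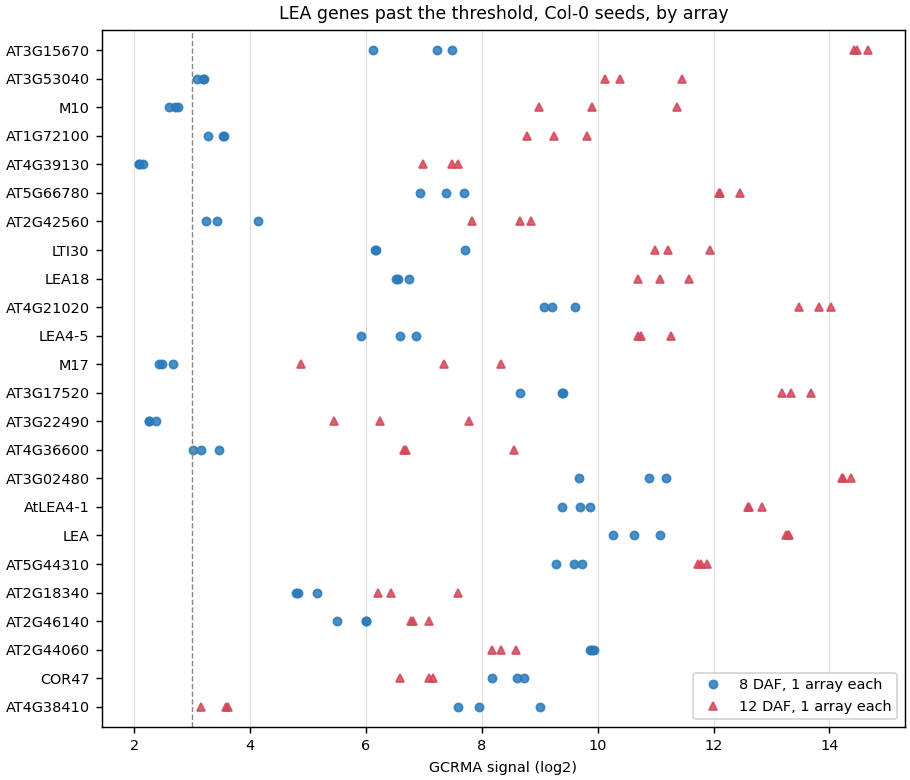
GCRMA signal (log2) of the 24 LEA genes past the threshold on each Col-0 array, circles for 8 DAF and triangles for 12 DAF, ordered by the change from the largest rise at the top. The dashed line marks a signal of 3, close to the array lows; 21 genes lie to the right at 12 DAF and the 3 at the bottom, AT2G44060, COR47 and AT4G38410, lie to the left.

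Small heat shock proteins, chaperones that also accumulate in maturing seeds without heat, showed 4 risen genes of 6 and a median change of 1.70. AT5G37670 read 2.87, 3.10 and 2.53 at 8 DAF and 6.05, 6.92 and 5.79 at 12 DAF, a rise of 3.42 (SE 0.27, adjusted p = 1e-05). AT1G53540 rose by 2.31 (SE 0.30) and AT2G29500 by 2.07 (SE 0.29). AT1G54050 rose by 1.34 (SE 0.46, adjusted p = 0.0461), but its call ended without any of 5 single arrays, and over all 6 such omissions the change ranged from 0.78 to 1.90. As in M10, the second replicate of 12 DAF was the highest in each of the 4 genes.

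The position of that array was not the same on every list. Its mean over the LEA list was 8.43, against 8.02 for each of the other two, and its mean over the nuclear photosynthesis genes, which fell, was 7.93 against 8.43 and 8.35. On the oil body list, where 3 of 7 genes rose, it was lowest, at 11.87 against 12.02 and 12.00, and on the storage protein list it lay between the others, at 12.70 against 12.72 and 12.58. As a description over 22746 probe sets, each array's deviation from its own age mean was set against the age change of WS, which shares no array with Col-0. The slope was 0.059 for the second replicate of 12 DAF and -0.029 and -0.031 for the others, on a scale where the whole Col-0 change from 8 to 12 DAF had a slope of 0.947. The 3 arrays of 12 DAF thus differed along this axis by far less than the step between the ages. At 8 DAF the slopes were 0.012, 0.006 and -0.018.

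Storage proteins are made in bulk during maturation as nitrogen reserves of the embryo. Of 5 measured genes, 2 rose and none fell, with a median change of 0.93. AT1G03890 read 11.23, 10.83 and 10.24 at 8 DAF and 14.36, 14.29 and 14.32 at 12 DAF, a rise of 3.56 (SE 0.27, adjusted p = 8.35e-06). AT2G28490 rose by 1.47 (SE 0.15). PAP85 read 13.63, 13.73 and 13.33 at 8 DAF and 14.47, 14.60 and 14.42 at 12 DAF. Its ages did not overlap and the adjusted p was 0.0372, but the change of 0.93 was under the 2-fold minimum. AT4G36700 was bright at both ages, with means of 13.04 and 12.97.

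Vacuolar processing enzymes (VPE) are proteases that cleave storage proteins and other vacuolar proteins, and 4 of them were measured. BETA-VPE, the seed type, read 11.31, 11.39 and 10.90 at 8 DAF and 13.64, 13.63 and 13.53 at 12 DAF, a rise of 2.40 (SE 0.17, adjusted p = 5.66e-06). GAMMA-VPE, known from vegetative organs, rose by 1.09 (SE 0.18), under the fold minimum without the first replicate of 12 DAF, when the change was 0.97. DELTA-VPE, known from the inner seed coat, where it takes part in cell death, read 11.46, 12.14 and 12.30 at 8 DAF and 10.41, 10.65 and 10.74 at 12 DAF, a fall of 1.36 on the log2 scale (SE 0.28, adjusted p = 0.00403). ALPHA-VPE changed by 0.15 (SE 0.17) with overlapping ages. The family moved in both directions, and on the list of 6 protein storage vacuole genes to which it belongs 2 rose and 1 fell.

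Oil is held in bodies coated by oleosins and related proteins. Of 7 measured oil body genes, 3 rose and 1 fell. AT2G25890 read 8.49, 8.41 and 8.01 at 8 DAF and 12.32, 12.47 and 12.22 at 12 DAF, a rise of 4.03 (SE 0.31, adjusted p = 9.14e-06). AT5G16460 rose by 3.86 (SE 0.30) and AT3G18570 by 2.19 (SE 0.30). The oleosin OLEO3 was among the 8 brightest genes at 8 DAF. It read 14.45, 14.37 and 14.36 there and 13.54, 12.92 and 13.72 at 12 DAF, a fall of 1.01 on the log2 scale (SE 0.32, adjusted p = 0.0349). That call ended without any of 5 single arrays, and over all 6 such omissions the change ranged from -1.17 to -0.77. AT3G01570, 1 of the 8 brightest genes at 12 DAF, changed by 0.45 (SE 0.20, adjusted p = 0.114).

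Genes of fatty acid and oil synthesis went the other way. Of 9 measured, 4 fell and 1 rose, and the median change was -1.37. AT5G10160 read 11.05, 11.34 and 11.46 at 8 DAF and 8.89, 8.30 and 9.25 at 12 DAF, a fall of 2.47 on the log2 scale (SE 0.22, adjusted p = 2.3e-05). AT1G24360, AT2G22230 and AT2G34590 fell by between 1.37 and 1.46. The single riser was AT3G44830, at 5.53, 4.72 and 5.58 and then 7.39, 7.75 and 7.19, a rise of 2.17 (SE 0.24). The acyl-ACP thioesterase genes FaTA and FATB, whose products release finished fatty acids from the plastid pathway, changed by -0.19 (SE 0.17) and 0.26 (SE 0.21) and were not called.

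Starch, which builds up in young seeds and is later consumed, showed 4 falls and no rise among 6 genes, with a median of -1.33. DPE1, the plastidial disproportionating enzyme, read 7.03, 7.14 and 7.42 at 8 DAF and 5.40, 3.80 and 5.96 at 12 DAF, a fall of 2.14 on the log2 scale (SE 0.45, adjusted p = 0.00433). SBE2.2, a starch branching enzyme, fell by 1.99 (SE 0.28) and the alpha-amylase AMY1 by 1.33 (SE 0.28). APL4, a large subunit of ADP-glucose pyrophosphorylase, fell by 1.32 (SE 0.41) from a low mean of 3.87, and its call ended without any of the 6 arrays, with changes from -1.41 to -1.27. DPE1 and SBE2.2 had their lowest value on the second replicate of 12 DAF.

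In sugar supply, AT1G62660, listed among the genes of sucrose cleavage, read 2.17, 2.32 and 2.09 at 8 DAF and 7.68, 7.64 and 6.91 at 12 DAF, a rise of 5.22 (SE 0.28, adjusted p = 8.77e-07). The sucrose exporter gene SWEET11 kept a high signal, with means of 12.13 and 12.28, and SAG29, also a SWEET, changed by 0.80 (SE 0.15). ICL, isocitrate lyase of the glyoxylate cycle that turns fat into sugar after germination, was already bright in the seed. It read 10.03, 10.50 and 9.73 at 8 DAF and 12.87, 13.04 and 12.85 at 12 DAF, a rise of 2.83 (SE 0.18, adjusted p = 2.17e-06), and was the only called gene of 4 in lipid mobilisation. SDP1, the triacylglycerol lipase, changed by 0.99 (SE 0.19), just under the fold minimum.

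The photosynthesis list held nuclear genes, all of which fell, and plastid genes, of which few passed the threshold. Of 31 measured genes 12 fell and none rose, with a median of -0.86. All 11 nuclear genes fell, with a median change of -3.40 and a range from -4.71 to -2.03. PSAN, a subunit of photosystem I, read 11.97, 12.03 and 11.76 at 8 DAF and 7.32, 6.76 and 7.54 at 12 DAF, a fall of 4.71 on the log2 scale (SE 0.29, adjusted p = 2.02e-06). ATPC1, the gamma subunit of the chloroplast ATP synthase, fell by 4.71 as well (SE 0.47).

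The light-harvesting genes LHCB4.1 and LHCB4.2, which encode the antenna protein CP29, fell by 4.41 (SE 0.24) and 4.18 (SE 0.37), and the third member, LHCB4.3, by 2.03 (SE 0.28). PSAE-1 of photosystem I read 13.00, 12.94 and 12.88 at 8 DAF and 9.15, 8.78 and 9.02 at 12 DAF. Bright at 8 DAF, it lost 3.95 on the log2 scale (SE 0.18). The carbon-fixation genes SBPASE, RCA and PRK fell by 3.23, 3.20 and 2.35 on the log2 scale. RCA, rubisco activase, was uneven at 12 DAF, where its arrays read 8.98, 8.82 and 6.40.

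The 20 psa and psb genes of the plastid genome, which encode photosystem core subunits, had a median change of -0.63. Every one of them was lower in mean at 12 DAF, yet only psbB passed the threshold, with a fall of 1.34 on the log2 scale (SE 0.21, adjusted p = 0.000714). psbA read 10.29, 10.27 and 11.29 at 8 DAF and 9.79, 9.18 and 9.93 at 12 DAF, a change of -0.98 (SE 0.36, adjusted p = 0.058). The nuclear and plastid genes were separated after their values had been seen, and the difference between them is a description. The labelling primes at poly(A) tails, which most mature plastid transcripts lack, and how this bears on the plastid values was not tested.

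**Figure D3:**
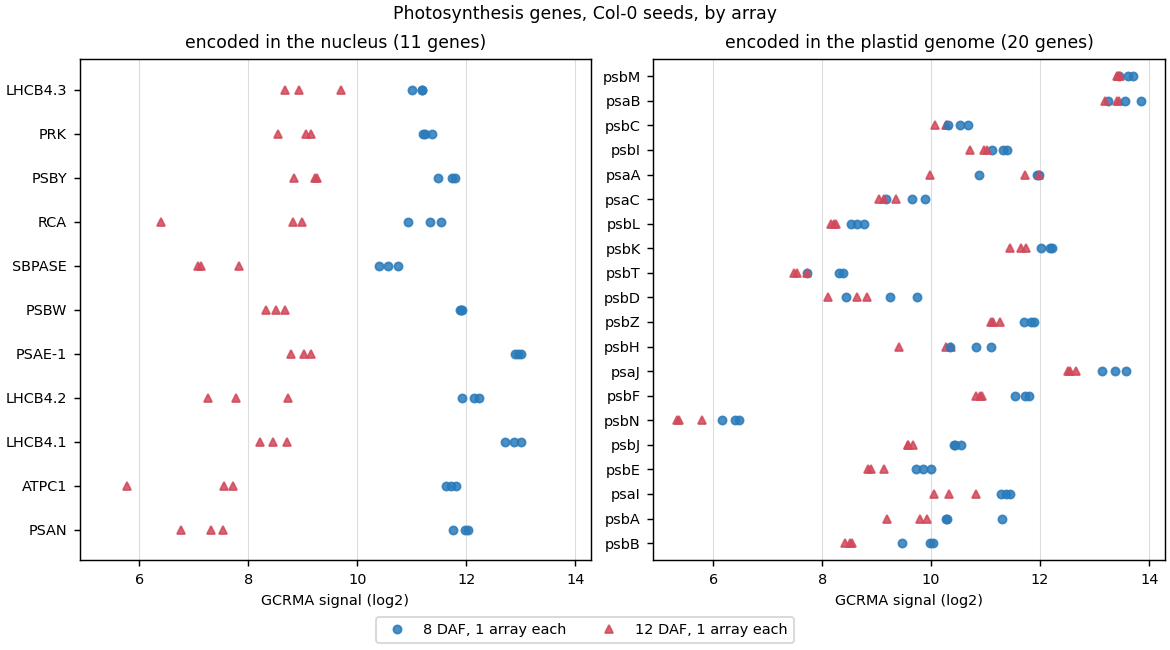
GCRMA signal (log2) of the 31 measured photosynthesis genes on each Col-0 array, nuclear genes at the left and plastid genes at the right, circles for 8 DAF and triangles for 12 DAF, each panel ordered by change. The triangles of all 11 nuclear genes lie more than 1 unit below the circles, whereas those of the 20 plastid genes lie closer together and overlap in some.

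Across all 69 measured plastid genes, 26 fell and none rose, with a median change of -0.89, and 67 were lower in mean at 12 DAF. The falls were uneven over gene classes. Of 15 genes for plastid ribosomal proteins (rpl and rps), 12 fell, with a median of -1.80. rpl16 fell furthest, from a mean of 11.21 to 8.23, or by 2.97 on the log2 scale (SE 0.20). Of 4 genes for the plastid RNA polymerase (rpo), 3 fell, with a median of -1.64. By contrast, 1 of 10 ndh genes and 1 of 20 psa and psb genes fell.

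Among 6 plastid atp genes, 4 fell. atpE and atpB, subunits of the ATP synthase, were among the 8 brightest genes at 8 DAF. atpE read 14.36, 14.54 and 14.38 at 8 DAF and 13.26, 13.26 and 13.29 at 12 DAF, a fall of 1.16 on the log2 scale (SE 0.07, adjusted p = 1.91e-06). atpB fell by 1.02 (SE 0.09) and was under the fold minimum without either of 2 arrays, at -0.95 without the second replicate of 8 DAF. Of 16 measured mitochondrial genes, 3 rose and 1 fell, with a median of 0.40. cox2, of cytochrome c oxidase, read 4.12, 4.65 and 3.81 at 8 DAF and 6.31, 6.15 and 5.64 at 12 DAF, a rise of 1.84 (SE 0.30), while cox1 fell by 1.10 (SE 0.15). Most mitochondrial genes were thus not called, and the called ones moved in both directions. How priming at poly(A) tails bears on the mitochondrial values was not tested either.

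Chlorophyll synthesis fell in all 3 measured genes. PORB, which carries out the light-dependent step of the pathway, read 10.09, 11.03 and 10.73 at 8 DAF and 4.93, 3.94 and 5.04 at 12 DAF, a fall of 5.98 on the log2 scale (SE 0.37, adjusted p = 2.08e-06). CHLM, magnesium protoporphyrin methyltransferase, fell by 4.0 (SE 0.31), and GSA1, an early enzyme that chlorophyll shares with haem, by 1.22 (SE 0.12). Among these 3 the fall was larger the later the step in the pathway. NOL, which takes part in chlorophyll b breakdown, fell by 1.03 (SE 0.29), a call lost without any of 4 single arrays. Over all 6 omissions its change ranged from -1.22 to -0.87.

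Cell division genes came next. Of 8 measured, 5 fell and none rose, with a median of -2.13. PRL, a subunit of the MCM helicase that licenses DNA replication, read 7.01, 7.04 and 6.68 at 8 DAF and 2.12, 2.15 and 2.22 at 12 DAF. AUR1, an Aurora kinase of mitosis, read 6.48, 6.56 and 6.75 and then 1.96, 1.94 and 1.97. Both went to the array lows, with falls of at least 4.75 (SE 0.13, adjusted p = 1.55e-08) and 4.64 (SE 0.16, adjusted p = 8.04e-08) on the log2 scale. AUR3, the DNA polymerase gene POLA3 and KINESIN-12B, a kinesin of the dividing cell's phragmoplast, fell by 2.13, 2.75 and 2.13 on the log2 scale. AUR2, at means of 7.19 and 6.60, was not called.

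Of 5 histone genes, HTB2, an H2B, read 8.74, 8.52 and 8.70 at 8 DAF and 5.39, 5.23 and 5.59 at 12 DAF, a fall of 3.25 on the log2 scale (SE 0.19, adjusted p = 1.32e-06). HIS1-3, a linker histone known for its induction by drought, rose by 2.04 (SE 0.25) from a mean of 3.94. These 2 histone genes moved in opposite directions.

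Genes for loosening the cell wall, expansins and xyloglucan endotransglucosylases, showed 6 falls and 2 rises among 29, of which 17 had a mean under 3 at both ages. EXPB3 read 7.04, 7.0 and 6.78 at 8 DAF and 2.98, 3.06 and 3.15 at 12 DAF, a fall of 3.88 on the log2 scale (SE 0.18). EXLA1, from a mean of 12.52, fell by 2.95 (SE 0.28), EXPA4 by 2.06 (SE 0.21) and EXPB1 by 1.77 (SE 0.24). EXPA15 went against them. It read 8.50, 7.90 and 8.04 at 8 DAF and 11.32, 11.24 and 10.76 at 12 DAF, a rise of 2.96 (SE 0.37, adjusted p = 0.000193), and EXPA9 rose by 1.68 (SE 0.38) from near the array lows.

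Flavonoid synthesis, taken with the seed coat for its tannins, had 2 falls and no rise among 8 measured genes. BAN, anthocyanidin reductase, which makes the precursors of proanthocyanidins in the inner coat, read 10.15, 10.40 and 10.01 at 8 DAF and 3.92, 3.06 and 4.11 at 12 DAF, a fall of 6.49 on the log2 scale (SE 0.34, adjusted p = 8.39e-07). DFR, the preceding reductase, fell by 4.02 (SE 0.36). The other 6 flavonoid genes were not called. Among them the flavonol glycosyltransferase genes UGT78D1 and UGT78D2 had changes of -0.73 (SE 0.16) and 0.23 (SE 0.26).

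Of 5 genes of seed coat mucilage and wall, 3 fell and none rose. ARA12, a subtilase that acts on mucilage release, read 12.25, 11.97 and 12.17 at 8 DAF and 10.58, 10.38 and 10.35 at 12 DAF, a fall of 1.69 on the log2 scale (SE 0.20, adjusted p = 0.000152). AT3G50990, for which the annotation gives the synonym PER36, fell by 2.07 (SE 0.29) and AT2G22900 by 1.15 (SE 0.19). The 3 endosperm markers measured, IKU2, AGL62 and MPC, stayed between 2.37 and 2.65 on every Col-0 array, and ALC of the silique wall had means of 3.42 and 3.73.

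Endoplasmic reticulum bodies store beta-glucosidases, enzymes that release defence compounds. BGLU19 read 2.71, 2.24 and 2.23 at 8 DAF and 12.27, 12.77 and 12.38 at 12 DAF, among the largest rises of the whole array at 10.08 or more (SE 0.32, adjusted p = 4.43e-08). PYK10, the main such enzyme of roots and seedlings, fell by 1.96 (SE 0.19) from a mean of 4.45 to one of 2.49. NAI2, a protein needed to form these bodies, fell by 1.01 (SE 0.29), and its call ended without either of 2 single arrays, with a range over all 6 omissions from -1.24 to -0.65.

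Among hormone genes, none of 5 measured gibberellin genes passed both criteria. The nearest was SLY1, an F-box gene of gibberellin signalling, at 7.35, 7.10 and 7.14 and then 6.38, 6.37 and 6.22, a change of -0.87 (SE 0.08, adjusted p = 3.78e-05). Of 11 auxin genes 3 rose. IAA34 read 2.43, 2.72 and 2.42 at 8 DAF and 4.92, 5.91 and 5.98 at 12 DAF, a rise of 3.08 (SE 0.24), and IAA30 rose by 2.1 (SE 0.22) to a mean of 7.58. The auxin synthesis gene YUC4 rose by 1.11 (SE 0.22), and was under the fold minimum, at 0.98, without the second replicate of 8 DAF.

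Of 6 measured regulators of maturation 3 rose and none fell. AGL67, a MADS-box transcription factor, read 4.87, 5.10 and 4.08 at 8 DAF and 10.31, 10.63 and 10.47 at 12 DAF. It rose by 5.78 (SE 0.25, adjusted p = 2.3e-07), about 55.1-fold, the largest rise among 79 transcription factors. EEL, a bZIP factor that acts on a LEA gene promoter, read 9.95, 10.20 and 9.96 at 8 DAF and 11.53, 11.57 and 11.97 at 12 DAF, a rise of 1.65 (SE 0.22). AGL18 rose by 1.16 (SE 0.22). BZIP53, a bZIP activator of maturation genes, changed by 0.83 (SE 0.17, adjusted p = 0.00448), below the fold minimum.

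Over the 79 transcription factors 9 rose and 3 fell, beside 8.47% and 9.75% over all genes. After AGL67 came AT1G30260, for which the annotation gives the synonym AGL79. It read 3.13, 4.11 and 4.32 at 8 DAF and 6.47, 6.78 and 7.01 at 12 DAF, a rise of 2.90 (SE 0.29). BZIP24, WRKY22 and bHLH34 rose by 1.84, 1.52 and 1.36, and WRKY6 rose by 1.09 (SE 0.27). The call of WRKY6 ended without any of 3 arrays, and over all 6 omissions its change ranged from 0.94 to 1.37. The deepest fall was that of another MADS-box gene, AGL87, at 9.95, 9.75 and 9.66 and then 7.21, 6.36 and 7.06, a fall of 2.91 on the log2 scale (SE 0.20). bHLH115 fell by 2.03 (SE 0.17), and BZIP61 by 1.45 (SE 0.38), a call lost without the second replicate of 8 DAF, when the change was -1.24.

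The genes of the largest changes lay mostly outside these lists. AT1G14940 read 2.70, 2.65 and 2.31 at 8 DAF and 12.82, 12.80 and 12.97 at 12 DAF, a rise of 10.31 or more (SE 0.53, adjusted p = 7.37e-07). AT1G14930, its neighbour on the chromosome, rose by 10.22 (SE 0.42), and AT1G14950, next to both, by 6.54 (SE 0.24) from a mean of 7.85 to one of 14.39. Adjacent copies of a family can share hybridisation, so their values may not be separate.

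CYP78A9, a cytochrome P450 known to raise seed and fruit size when overexpressed, read 3.44, 3.04 and 3.33 at 8 DAF and 13.50, 13.42 and 12.99 at 12 DAF, a rise of 10.03 (SE 0.18, adjusted p = 1.7e-09). FACT, which attaches caffeic acid to fatty alcohols of suberin-associated waxes in roots, read 2.05, 2.04 and 2.03 and then 12.14, 11.86 and 11.41, a rise of 9.76 or more (SE 0.30). Both went from near the array lows to the upper part of the range. The remaining 11 of the 15 largest rises, BGLU19 among them, lay between 8.54 and 10.14, and AT3G58550, AT3G04170 and AT2G18370 had changes of 10.14, 9.82 and 9.77.

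Of the 15 largest falls the first was GILT, a thiol reductase of the lysosomal type, at 12.08, 12.17 and 12.12 and then 2.42, 2.51 and 2.31. It fell by 9.71 or more on the log2 scale (SE 0.33, adjusted p = 6.55e-08). ATPMEPCRD read 11.98, 12.04 and 11.93 at 8 DAF and 2.64, 2.81 and 2.68 at 12 DAF, a fall of 9.27 (SE 0.31), and AT1G09750 fell by 8.83 (SE 0.28). These were abundant transcripts at 8 DAF that were near the array lows at 12 DAF. GH9C1, an endoglucanase gene, fell by 6.25 (SE 0.61), and AT5G01870 by 7.23 (SE 0.54), with its second replicate of 12 DAF at 4.82 against 2.28 and 2.87.

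**Figure D4:**
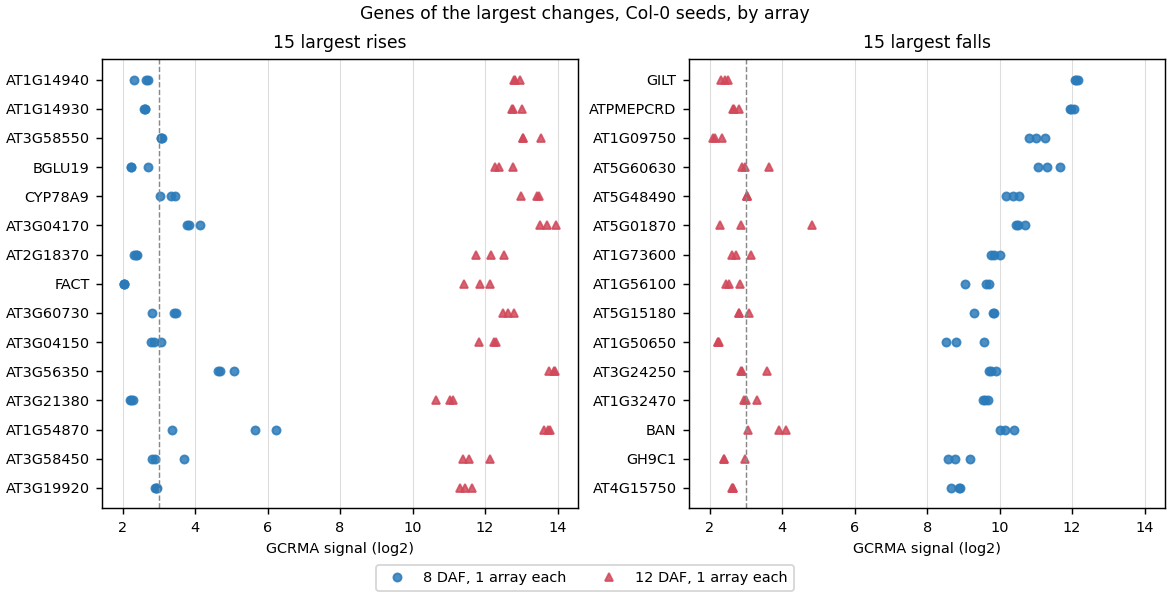
GCRMA signal (log2) of the 15 genes of the largest rises (left) and the 15 of the largest falls (right) on each Col-0 array, circles for 8 DAF and triangles for 12 DAF. The dashed line marks a signal of 3, close to the array lows. Most of these genes lie near that line at the age at which they are dim and above 8 at the other. Genes with overlapping ages were left out by the choice.

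The probe sets of highest signal are given for each age, although signals of different probe sets are not on a common scale and their order is not one of transcript level. At 8 DAF they were those of AT5G38170 (15.04), AT5G38160 (14.56), the defensin-like gene LCR69 (14.48), atpE, OLEO3, AT1G62070 (14.30), the peroxidase gene PRXR1 (14.27) and atpB. AT1G62070 read 14.14, 14.29 and 14.46 at 8 DAF and 8.55, 8.94 and 7.28 at 12 DAF, a fall of 6.04 on the log2 scale (SE 0.57, adjusted p = 3e-05). LCR69 fell by 3.50 (SE 0.25), AT5G38170 by 2.05 (SE 0.26) and AT5G38160 by 1.5 (SE 0.41), the last a call lost without any of 3 arrays, with a range over all 6 omissions from -1.59 to -1.40. PRXR1 kept its level, at a change of -0.30 (SE 0.11).

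At 12 DAF the highest signals were those of AT3G15670, AT1G04560 (14.52), PAP85, AT3G63040 (14.48), AT3G01570, AT1G14950, AT1G47540 (14.38) and AT5G59170 (14.34). AT1G04560 read 12.16, 12.41 and 11.92 at 8 DAF and 14.55, 14.52 and 14.49 at 12 DAF, a rise of 2.35 (SE 0.21, adjusted p = 1.89e-05). AT5G59170 rose by 1.99 (SE 0.18). PAP85, AT3G63040, AT3G01570 and AT1G47540 were not called, with changes between 0.45 and 0.93.

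Families that share a symbol were counted where at least 10 members had a probe set, a choice made after the annotation had been seen. Of 29 serine carboxypeptidase-like (SCPL) genes 8 fell and 1 rose, against 9.75% and 8.47% over all genes. scpl25 fell by 4.33 from a mean of 8.57, and scpl20 by 4.09 from 9.73, whereas scpl31 rose by 2.79. Of 15 GH9 endoglucanase genes 6 fell and only GH9C2, at 2.91, rose. Of 47 UDP-glycosyltransferase (UGT) genes 6 rose and 8 fell, from UGT88A1 at -4.45 to UGT72E1 at 3.51.

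Of 20 beta-glucosidase (BGLU) genes 5 rose and 2 fell. BGLU44, abundant at 8 DAF with a mean of 10.83, fell by 3.01, while BGLU28 and BGLU25 rose by 2.54 and 2.03. Of 14 SWEET sugar transporters SWEET6, SWEET2 and SWEET7 rose by 2.91, 2.85 and 2.33, and SWEET1 fell by 2.28. SWEET7 reached a mean of 10.23. The 989 annotated pseudogenes had 8 risen (0.81%) and 1 fallen member (0.10%), against 8.47% and 9.75% over all genes. Their median signals, 2.49 at 8 DAF and 2.59 at 12 DAF, were close to the array lows. The largest rise among them was that of AT5G50315, by 4.40 (SE 0.27) from a mean of 4.11 to one of 8.52.

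Some neighbouring genes had calls in the same direction, which also happens among unrelated genes when 8.47% of all genes rose and 9.75% fell. Counting runs of adjacent protein-coding genes that all had a probe set and a call in the same direction, there were 55 risen and 68 fallen pairs, 6 risen and 4 fallen runs of 3, and 1 risen run of 4. The last, on chromosome 3, held GR1, a glutathione reductase gene, AT3G24180, AT3G24190 and AT3G24200, with rises between 1.01 and 2.01. On chromosome 5 the methyltransferase gene NAMT1 rose by 5.0 beside AT5G04380 at 6.36 and AT5G04390 at 1.21. On chromosome 4 GILT lay beside STOMAGEN, which encodes a peptide signal for stomata, at -1.12, and AT4G12980 at -1.86. The small heat shock gene AT5G37670 lay beside ARLA1A at 2.14 and AT5G37690 at 3.09. With most neighbours lacking a probe set of their own, the runs are a partial count and carry no test. The number of runs that unrelated genes would give was not worked out, so the counts do not show joint change.

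The same step from 8 to 12 DAF was then set against that of WS, which shares no array with Col-0. In WS 3913 probe sets changed, and over all 22746 probe sets the changes of the 2 wild types had a Pearson correlation of 0.838 and a Spearman correlation of 0.763, as a description across probe sets, which are not independent. Of the risen probe sets of Col-0, 1153 also rose in WS, 55.1% of the Col-0 and 73.8% of the WS calls. Of the fallen, 1781 also fell, 69.4% and 75.8%. Opposite calls were rare, at 27 and 4. The WS calls came from a fit on the 12 wild-type arrays, so the Col-0 arrays also entered the variance behind them.

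Tested directly, the age changes of the wild types differed for 1441 probe sets (6.34%), with Col-0 above WS in 849 (3.73%) and below it in 592 (2.60%). Of the LEA genes 13 of 34 differed, all with the larger value in Col-0, and so did 5 of 31 photosynthesis genes, in which the change was less negative in Col-0. AGL67 rose by 5.78 in Col-0 and 3.01 in WS, a difference of 2.77 (adjusted p = 0.00087). PSBW fell by 3.40 and 6.13, a difference of 2.73 (adjusted p = 0.0018).

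Levels set beside each other, rather than changes, showed a higher WS signal at 8 DAF on storage protein genes. The mean over the 5 storage protein genes was between 11.15 and 11.59 on the 8 DAF arrays of Col-0 and between 12.39 and 12.59 on those of WS, and at 12 DAF it was between 12.58 and 12.72 and between 12.70 and 12.88. AT1G14950 had a mean of 7.85 in Col-0 and 12.55 in WS at 8 DAF, and 14.39 and 14.75 at 12 DAF. The nuclear photosynthesis genes, in contrast, had means between 11.65 and 11.82 in Col-0 and between 10.98 and 11.32 in WS at 8 DAF. By 12 DAF they had means between 7.93 and 8.43 and between 6.41 and 6.64. The LEA list was higher in WS at 8 DAF, with array means between 5.55 and 5.78 in Col-0 and between 6.05 and 6.18 in WS. It was lower in WS at 12 DAF, at 8.02 to 8.43 in Col-0 and 7.30 to 7.66 in WS. The oil body list was also higher in WS at 8 DAF, between 11.32 and 11.35 against 10.70 and 10.88 in Col-0. The small heat shock list was lower in WS at both ages, between 3.04 and 3.18 against 3.44 and 3.61 at 8 DAF. At 8 DAF the storage protein, LEA and oil body lists were thus higher in WS, and the nuclear photosynthesis and small heat shock lists were lower. At 12 DAF the storage protein and oil body arrays of the wild types overlapped. Ecotype and stage cannot be told apart here.

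The genes whose age change was furthest above that of WS formed a set that rose or stayed level in Col-0 and fell in WS. AT5G37690 read 2.45, 2.44 and 2.40 at 8 DAF and 5.97, 5.76 and 4.85 at 12 DAF in Col-0, while the WS means went from 8.68 to 3.62. Its difference of age changes was 8.16 (SE 0.56, adjusted p = 4.88e-05). AT2G23540 had means of 6.90 and 9.40 in Col-0 and 11.63 and 7.52 in WS, and AT2G47200 had 2.99 and 6.28 against 7.50 and 4.49. AT2G21100, AT1G68850 and AT5G12420 showed the same crossing, with differences between 6.14 and 6.59. AT1G68850 rose by 1.94 within Col-0, a call lost without any of 4 arrays, with a range over all 6 omissions from 1.73 to 2.3. The fus3-3 change was negative for all 6 of these genes as well.

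Furthest below WS were genes with a clear signal in Col-0 at 8 DAF and little in WS. JMT, jasmonate methyltransferase, read 7.85, 7.84 and 7.41 in Col-0 at 8 DAF and 2.19, 2.2 and 2.22 at 12 DAF, and its WS means were 2.92 and 2.24, a difference of -4.81 (SE 0.36, adjusted p = 7.58e-05). THI2.2, a thionin, fell by 4.18 in Col-0 and had WS means of 2.46 and 2.3. AT2G01610 and AT2G14690 had the same form, with WS means under 3 at both ages, so for these genes the difference is one of level at 8 DAF. AT3G48460 fell in both, and AT3G10590 fell by 3.00 in Col-0 while WS went from 4.49 to 5.46.

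Against fus3-3 the age changes differed more widely, for 4168 probe sets (18.3%). Col-0 was above the mutant in 1931 (8.49%) and below it in 2237 (9.83%). The fus3-3 arrays were more spread than those of Col-0, with a median SD of 0.145 at 8 DAF and 0.162 at 12 DAF. Their actin 3′ excess at 12 DAF was 6.78 on the second replicate and 5.55 and 5.40 on the others. The part of these differences between arrays in the results was not tested. Of the risen probe sets of Col-0, 62.0% had a called difference from fus3-3 in either direction, and of the fallen 61.0%. The same shares against WS were 24.5% and 20.9%. These probe sets were chosen by their Col-0 change, which is also a term of the difference. For both genotypes, shares above those over all probe sets are thus partly built in. In fus3-3 itself 2461 probe sets changed with age. It shared 441 of the Col-0 rises, 21.1% of the Col-0 and 37.7% of its own, and 751 of the falls, 29.3% and 58.2%.

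The LEA genes differed in 25 of 34, with Col-0 above fus3-3 in 20 and below it in 5. AT3G15670 changed by 0.17 in fus3-3 against 7.57 in Col-0, but it was already at a mean of 13.42 in the mutant at 8 DAF, so the difference of 7.40 (SE 0.50, adjusted p = 1.17e-05) came with a high early level. AT3G53040 had fus3-3 means of 7.14 and 7.53, and AT1G54870 had 9.01 and 9.95, each above the Col-0 level at 8 DAF. AT2G38900 was bright in Col-0 at both ages, with means of 10.69 and 11.46, and went from 10.38 to 3.18 in fus3-3. AT3G05260 read 4.37, 5.90 and 3.64 and then 12.91, 13.30 and 12.88 in Col-0, with fus3-3 means of 2.49 and 3.75. The largest differences above fus3-3 were thus of several forms.

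Of the photosynthesis genes 11 of 31 differed, all with the lower change in Col-0. PORB changed by -5.98 in Col-0 and by 0.50 in fus3-3, a difference of -6.48 (SE 0.52, adjusted p = 3.27e-05), and CHLM and GSA1 also differed. AT1G32470 fell by 6.52 in Col-0, whereas in fus3-3 it had means of 9.54 and 10.26. AT1G09750 and AT5G48490 fell by 8.83 and 7.33 in Col-0, with fus3-3 changes of -0.52 and 0.13. The seed coat gene BAN fell by 6.49 in Col-0, and its fus3-3 change of -6.81 did not differ by the test (difference 0.32, SE 0.49, adjusted p = 0.687).

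**Figure D5:**
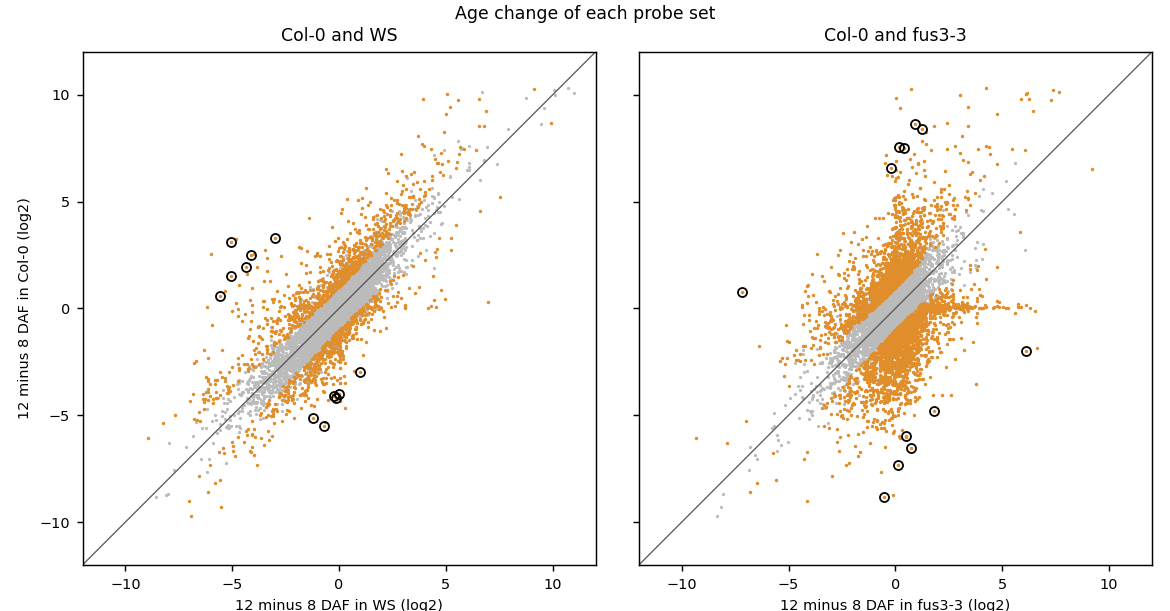
Change from 8 to 12 DAF (log2) of each of 22746 probe sets in Col-0 (vertical axis) against that in WS (left) and in fus3-3 (right). Orange points are probe sets whose age change differed by the test, grey points the rest, circles the 12 genes named for each comparison, and the line marks equal change. Points lie along the line against WS, and against fus3-3 many Col-0 changes have a mutant change near 0.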

How the data were processed

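RNA of whole seeds, 2 µg from each batch of plants, was labelled with the One-Cycle kit, and 1 Affymetrix array for Arabidopsis, which carries 22810 probe sets, was hybridised for each sample, per the labels' protocols. The values deposited by the authors are log2 signals. GCOS 1.3 and GCRMA are the tools named in the submitters' processing notes. Which GCRMA version was used is not given in the sources, nor whether arrays of all groups were normalised jointly. The deposited values were used unchanged, and the number of arrays limits the precision.

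A linear model with 1 mean per group was fitted with limma 3.58.1 in R 4.3.3 (lmFit and eBayes, residual degrees of freedom 8) to the 12 arrays of Col-0 and fus3-3, and p-values were adjusted by the Benjamini-Hochberg method over 22746 probe sets. Differences between age changes were contrasts of these 12 arrays, or of the 12 wild-type arrays for WS. The age changes of fus3-3 and of WS themselves were called in the same fits. The code was tested on simulated data. Of the probe sets, 13513 were paired with 1 gene, 503 with several and 8730 with none. The plots were made in Python 3.11.15 (matplotlib 3.10.9).

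Members and lists were chosen with earlier results of these data known. The text names the 15 largest rises and falls whose ages did not overlap and whose higher mean reached the median signal, up to 5 called members per list and direction (8 for transcription factors), the 6 largest differences of age changes in each direction, and the 8 brightest genes at each age. Lists with no called gene gave their 2 brightest members, and reference genes could be named. The 7 lists without a measured gene were raffinose oligosaccharides, abscisic acid, ribosomal proteins, suberin and cutin, lipid transfer proteins, GDSL lipases and reactive oxygen scavenging. The alternatives were another normalization, other arrays in the fit, variances, filters, thresholds, a replicate block and leaving out each array.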

Additional observations from a re-analysis of the deposited data

Results flagged for a closer look

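These genes are listed because the change from 8 to 12 DAF differed between Col-0 and another genotype by a limma test of the difference itself. The differences are Col-0 minus the other genotype, on the log2 scale. Against WS the positive ones were 8.16 for AT5G37690, 6.61 for AT2G23540, 6.59 for AT2G21100, 6.30 for AT2G47200, 6.29 for AT1G68850 and 6.14 for AT5G12420. The negative ones against WS were -4.81 for JMT, -4.02 for THI2.2, -3.97 for AT3G10590, -3.96 for AT2G01610, -3.91 for AT3G48460 and -3.83 for AT2G14690. Against fus3-3 the positive ones were 7.97 for AT2G38900, 7.70 for AT1G54870, 7.40 for AT3G15670, 7.13 for AT3G05260, 7.10 for AT3G53040 and 6.78 for AT1G16850. The negative ones against fus3-3 were -8.30 for AT1G09750, -8.09 for AT3G28220, -7.46 for AT5G48490, -7.24 for AT1G32470, -6.60 for AT4G16980 and -6.48 for PORB.

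The means behind them took different forms. AT3G28220 changed by -2.0 in Col-0 and went from 3.49 to 9.58 in fus3-3, while AT4G16980 changed by -4.79 in Col-0 and went from 5.84 to 7.64 in the mutant. AT1G16850 rose by 6.59 in Col-0 and had fus3-3 means of 7.42 and 7.23. All 24 calls held under every alternative run.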

How the results depend on the processing

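No named change turned its sign under the alternatives run, but the balance of rises and falls did turn with no fold minimum. The 4661 calls became 2421 (1125 higher, 1296 lower) with 1 probe set per gene, which tests fewer probe sets, and 8287 (4182 higher, 4105 lower) with no fold minimum. The 1441 differences from WS became 2494 (1374 higher, 1120 lower) with no fold minimum and 879 (523 higher, 356 lower) at an adjusted p under 0.01. Whether the same replicate numbers pair the arrays could not be told from so few arrays. The deviations of same-numbered arrays correlated at 0.04, 0.03 and 0.09, and those of differently numbered arrays between -0.083 and 0.055. With the replicate block 4669 probe sets were called, and 4423 in the 6 Col-0 arrays alone. Leaving out each array in turn gave 4323 to 4822 calls (1907 to 2226 higher, 2416 to 2596 lower). The same gave 1220 to 1693 differences from WS (717 to 1063 higher, 503 to 630 lower) and 3784 to 4364 from fus3-3 (1733 to 2083 higher, 2051 to 2286 lower). It ended the call of 12 named genes, each named with a value or range beside its result, and turned the sign of none. Centring on the 7 reference genes, the fallen GAPC2 among them, moved all changes by -0.10 and the risen share of calls from 44.9% to 39.6%. A centring without GAPC2 was not run. GAMMA-VPE and WRKY6 then lost their calls, as did AT1G54050, which also lost its call after quantile normalization, with the block and in the 6 Col-0 arrays. WRKY6 also lost its call with the block in the 6 arrays, as did AT1G54050, NAI2 and the expansin gene EXPA20, which fell by 1.43. OLEO3 lost its call after quantile normalization, NAI2 in the 6 arrays, and AT1G54050 also with 1 probe set per gene. At an adjusted p under 0.01 the 4661 calls became 4249, and 9 named genes lost theirs. These were OLEO3, APL4, AT1G54050, NOL, NAI2, WRKY6, BZIP61, AT1G68850 and AT5G38160. The causes were not tested. Genes with signals near the array lows have no measured fold, and 8730 probe sets have no gene name here.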
